A study of Mus musculus with 19 samples.

Results

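Lymphomas in which whole chromosomes were expressed above or below the level of the other tumours are described here and set against lymphomas in which no chromosome was. They number 10 of the 19 tumours in the series, against 8 with no such chromosome, and 1 tumour was left out. The members were chosen by measured values. For each tumour, the log2 expression of every gene was centred on that gene's median over the 19 tumours, and a tumour was called shifted when the median over the genes of any autosome was at least 0.25 above or below 0. That median used the 9935 autosomal genes with a mean normalised read count of at least 50.

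Aneuploidy, a gain or loss of whole chromosomes, arises when chromosomes are distributed unequally in mitosis. It is common in lymphomas, and a gain of chromosome 15, which carries Myc, is a recurrent change in mouse lymphoid tumours. Genes of a gained chromosome are usually transcribed at a higher level, so bulk RNA can show a change of the whole chromosome. Copy number itself was not measured here, and in bulk RNA a change in some of the cells cannot be told apart from a smaller change in all of them.

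All tumours came from Eμ-Myc mice, whose Myc transgene is under the enhancer of the immunoglobulin heavy chain and so is active in B cells, and every group shared it. The mice were either Bptf+/Δ, with 1 deleted allele of Bptf (HET), or Bptf+/+ (WT), and each lymphoma was classed as late or early in onset. The shifted set held 1 HET_late, 3 HET_early, 3 WT_late and 3 WT_early tumours, and the unshifted set held 3 HET_late, 2 WT_late and 3 WT_early tumours. No HET_early tumour was unshifted. The fourth one, HET_early_2, also passed the limit, downward on chromosomes 15 (-0.30) and 17 (-0.26), but the rule that set up the comparison left it out. Its lowering of chromosome 15 was uneven along the chromosome. Numbers after a group only name tumours. The sources used here do not give how the Bptf allele was deleted.

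Polyadenylated RNA of flash-frozen tumour was sequenced from each mouse, with 8297856 to 11819433 reads per library in the shifted set and 8926911 to 12497732 in the unshifted set. Libraries were amplified under more than 1 version of the kit protocol, which the labels do not assign to tumours, so its part in any difference was not tested. Bptf (ENSMUSG00000040481.17, chromosome 11, 107033081 to 107132127, minus strand, GRCm38), the largest subunit of the NURF remodelling complex, ran from 408 to 1573 normalised reads in the 8 HET libraries and from 1665 to 2586 in the 11 WT libraries. HET_early_2 had Col2a1, a cartilage collagen, as its top transcript with 4.36% of reads, and Cd79a, a B cell receptor subunit that defines B cells, at 38.5. Among the shifted libraries, WT_late_1 had Cd79a at 103 but kept Cd79b at 2737 and Pax5 at 776. The medians of Cd79a were 4227 in shifted and 5732 in unshifted libraries. Among the unshifted libraries, 2 were led by a transcript other than the translation factor Eef1a1: WT_early_6 by the salivary gene Bpifa2 with 5.07% of reads, and HET_late_4 by the immunoglobulin A heavy chain Igha with 5.55%.

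The shifts were mostly upward and were spread over 10 of the 19 autosomes. Of the 190 combinations of a shifted tumour and an autosome, 20 passed the limit that defined the set, 19 of them upward and 1 downward. Chromosomes 1, 2, 4, 5, 7, 8, 9, 11 and 19 passed it in no tumour. Chromosome 15 was raised in 4 tumours, chromosomes 14 and 18 in 3 each, and chromosomes 3, 12 and 17 in 2 each. Chromosomes 6, 10 and 16 were raised and chromosome 13 was lowered in 1 tumour each. Because these medians chose the tumours, they are given as a description.

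**Figure D1:**
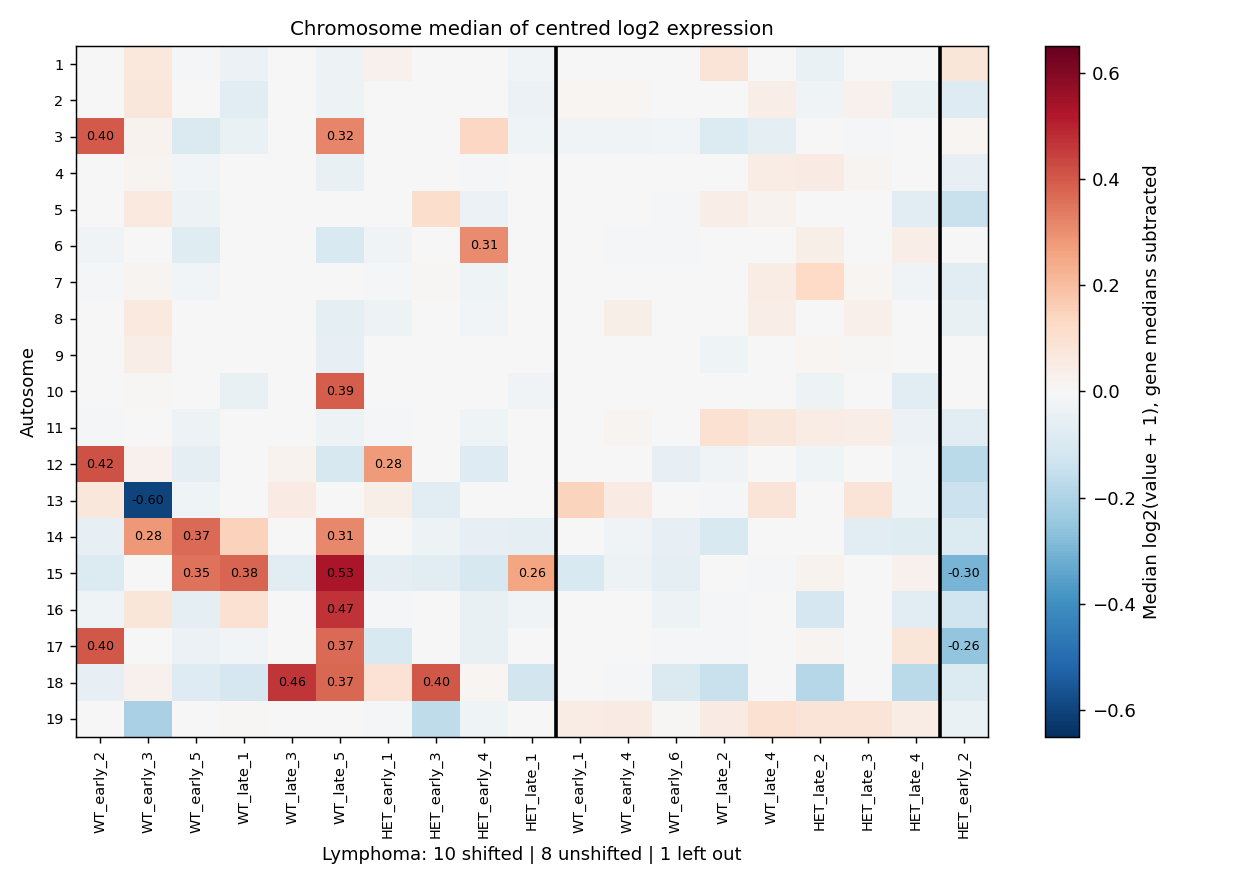
Median log2 expression of each autosome (rows) in each lymphoma (columns), with each gene centred on its median over the 19 tumours; the 10 shifted tumours are left of the 8 unshifted ones, and the tumour left out is on the right. Printed values are those of at least 0.25 in size; the strongest upward value is 0.53 on chromosome 15 in WT_late_5 and the only downward one in the shifted tumours is -0.60 on chromosome 13 in WT_early_3.

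The tumours differed in how many chromosomes were shifted. WT_late_5 had 7 raised chromosomes, with medians of 0.53 on chromosome 15, 0.47 on 16, 0.39 on 10, 0.37 on 17, 0.37 on 18, 0.32 on 3 and 0.31 on 14. WT_early_2 had 3, at 0.42 on chromosome 12, 0.40 on 17 and 0.40 on 3. WT_early_5 had 2, at 0.37 on chromosome 14 and 0.35 on 15, and WT_early_3 combined 0.28 on chromosome 14 with -0.60 on chromosome 13. The other 6 tumours had 1 each. WT_late_3 and HET_early_3 had chromosome 18, at 0.46 and 0.40. WT_late_1 and HET_late_1 had chromosome 15, at 0.38 and 0.26. HET_early_1 had chromosome 12 at 0.28, and HET_early_4 had chromosome 6 at 0.31. The counts were thus 1 in each of the 4 HET tumours of the set and 1 to 7 in the 6 WT tumours, of which WT_late_1 and WT_late_3 also had 1, and the HET tumour left out had 2. These counts come from the rule itself and compare nothing between genotypes.

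The limit of 0.25 separated values that were close for some tumours. Just inside it lay chromosome 15 in HET_late_1 at 0.26 and chromosome 12 in HET_early_1 at 0.28. Just outside it lay chromosome 19 in WT_early_3 at -0.21, chromosome 18 in the unshifted HET_late_2 and HET_late_4 at -0.19 and -0.18, chromosome 19 in HET_early_3 at -0.16, and chromosome 14 in WT_late_1 at 0.15. Over the remaining 170 combinations in shifted tumours the median ran from -0.21 to 0.15, and 160 of them were within 0.1 of 0. Over the 152 combinations in unshifted tumours it ran from -0.19 to 0.14.

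Where a chromosome was raised, most of its genes were raised, along its whole length. Relative to the median of the 8 unshifted tumours, the 19 raised combinations had medians of 0.33 to 0.62 on the log2 scale, with a middle value of 0.41. As a scale, RNA proportional to 3 copies in place of 2 in every cell would give 0.58. Between 71.0% and 89.2% of the genes of each lay above the unshifted median, against 38.9% to 61.7% of genes for any chromosome in an unshifted tumour. The rule chose the raised combinations by such values and the unshifted tumours supplied the median, so this contrast is a description. When the genes of each chromosome were cut into 10 stretches of equal gene number in chromosome order, every stretch had a median above 0 in all 19 raised combinations. The lowest stretch was 0.12, near the end of chromosome 12 in HET_early_1. Chromosome 15 of WT_late_5 was the highest, at 0.47 to 0.72 along its stretches.

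Chromosome 13 of WT_early_3 was the only lowered one. Its median was -0.63 relative to the unshifted tumours, its 10 stretches ran from -0.79 to -0.49, and 8.97% of its 368 genes lay above the unshifted median. RNA proportional to 1 copy in place of 2 in every cell would give -1. Chromosome 19 of the same tumour stayed inside the limit but was uneven. Its first 4 stretches lay between -0.57 and -0.46, and the stretches after them lay nearer 0, at -0.06 and -0.07 in the seventh and eighth.

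**Figure D2:**
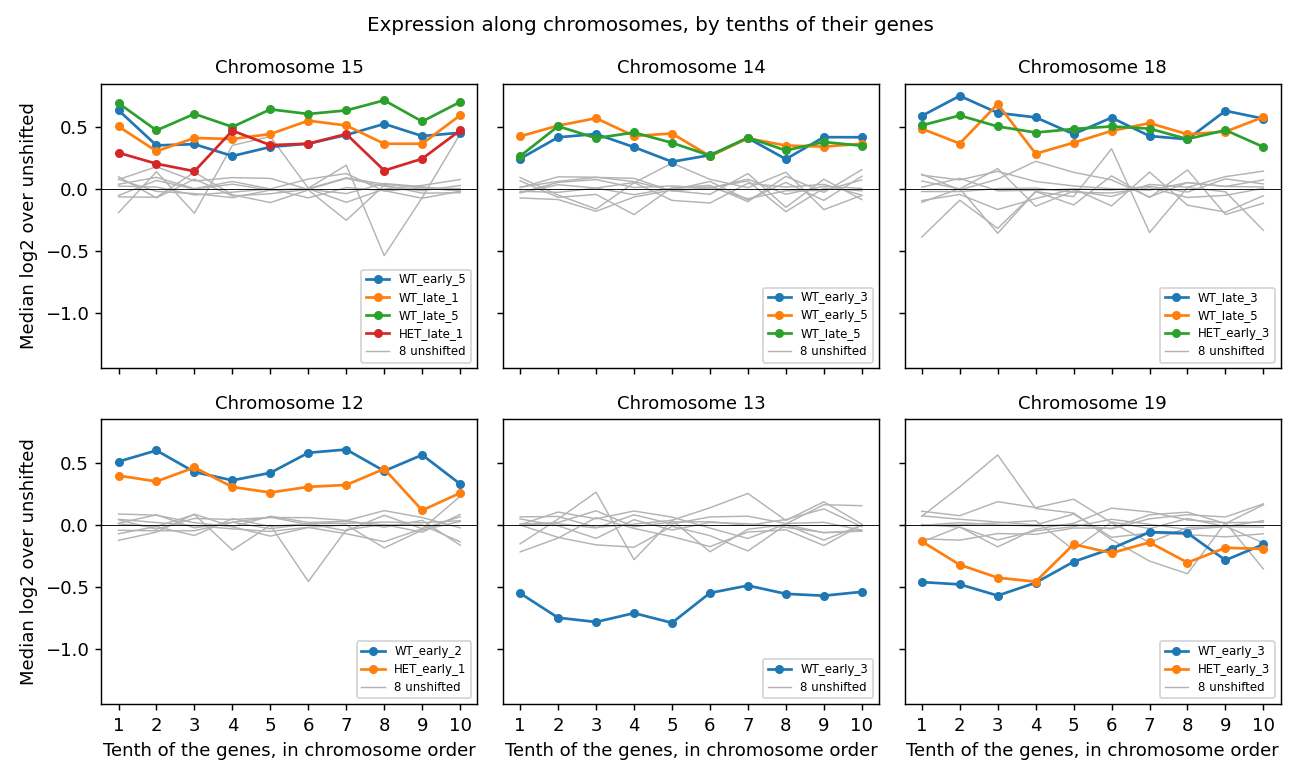
Median log2 expression relative to the median of the unshifted tumours (vertical axis) in 10 stretches of equal gene number along a chromosome (horizontal axis), for 6 chromosomes. Coloured lines are the named shifted tumours and grey lines the 8 unshifted tumours; the raised lines stay above 0 throughout, chromosome 13 of WT_early_3 stays between -0.79 and -0.49, and chromosome 19 of WT_early_3 is lowest, at -0.57, in the third stretch.

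Even changes below the limit were also seen. In shifted tumours, 2 of the 170 remaining combinations had all 10 stretches above 0, chromosome 3 of HET_early_4 (0.10 to 0.31) and chromosome 5 of HET_early_3 (0.07 to 0.17), and 8 had all stretches below 0. Those 8 included chromosome 19 of WT_early_3 and HET_early_3, chromosome 11 of WT_early_5, HET_early_3 and HET_early_4, and chromosomes 1, 4 and 6 of WT_late_5. In unshifted tumours, 0 of 152 had all stretches above 0 and 1, chromosome 13 of WT_late_2, had all below 0. The unshifted median used for scale came from these same 8 tumours, so the 2 counts are not on an equal footing. In WT_late_5, with 7 chromosomes raised, the medians of the others lay between -0.10 and 0. All genes of a library share 1 scaling factor, so raised chromosomes can lower the others, which was not tested.

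On raised chromosomes, genes of higher expression had higher medians relative to the unshifted tumours. In the raised combinations together (7571 values of 3721 genes), the median was 0.42 relative to the unshifted tumours. With genes split by mean expression into 3 classes of equal size, it was 0.50 in the highest class, 0.43 in the middle one and 0.21 in the lowest. The same split was not made on chromosomes that were not raised. Whether the classes differed there too was therefore not tested. Ribosomal protein genes on raised chromosomes had a median of 0.39, with 53 of 61 values of 28 genes above 0. Over all genes of each raised combination, 71.0% to 89.2% were above 0. The 46 ribosomal protein genes on chromosomes that never passed the limit had a median of -0.16 in the shifted tumours. The rule chose the raised combinations by their medians, so these values are a description. Ribosomal protein genes have many near-identical pseudogenes, so their reads may be divided among copies.

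Single genes followed their chromosome with much variation. On chromosome 15, 52 of 425 genes (12.2%) were higher in all 4 tumours with a raised chromosome 15 than in every unshifted tumour, against 1.25% of all autosomal genes and 0.479% of genes on chromosomes that never passed the limit. The corresponding counts were 67 of 359 (18.7%) on chromosome 14, against 2.07% of all autosomal genes, and 68 of 249 (27.3%) on chromosome 18, against 1.39%. They were 127 of 482 (26.3%) on chromosome 3 and 132 of 522 (25.3%) on chromosome 17, each against 6.19% in the same 2 tumours. On chromosome 12 they were 73 of 355 (20.6%), against 4.15%. The tumours were chosen for these chromosome medians, so nothing further is read from the excess. Most genes of each of these chromosomes overlapped the unshifted range in at least 1 of the tumours in which the chromosome was raised.

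Rad21, the cleaved subunit of the cohesin ring that holds sister chromatids together, was one of the genes of chromosome 15 that separated (51962240 to 51991747, minus strand). It had 5698 normalised reads in WT_early_5, 5014 in WT_late_5, 4067 in WT_late_1 and 3810 in HET_late_1. The 8 unshifted tumours had 1669 to 3770, with a median of 3483. All 4 tumours with a raised chromosome 15 were thus above the unshifted range, HET_late_1 by little. Eif4b, a translation initiation factor on the same chromosome, was above the unshifted maximum of 12508 in 3 of the 4, at 18509 in WT_late_5, 17418 in WT_late_1 and 15518 in HET_late_1, but had 8561 in WT_early_5. Pabpc1, the cytoplasmic poly(A)-binding protein, was above the unshifted range in 1 of the 4, and the ribosomal protein gene Rpl3 and Pvt1, a non-coding RNA beside Myc, in none.

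Myc did not follow chromosome 15 (61985391 to 61990374, plus strand). It had 14847 normalised reads in WT_late_5 but 6567 in HET_late_1, 6099 in WT_early_5 and 6006 in WT_late_1, within the unshifted range of 2271 to 11159. The other shifted tumours above that range were WT_early_3 with 16554 and WT_early_2 with 14417, both without a raised chromosome 15. Over all 10 shifted tumours Myc ran from 6006 to 16554 with a median of 7454, against an unshifted median of 6522. Reads of the transgene and of the endogenous gene are not told apart in this table.

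Nras, a RAS GTPase gene of chromosome 3, had 1933 normalised reads in WT_early_2 and 1485 in WT_late_5, both above the unshifted maximum of 1416. Tet2, which oxidises methylated cytosine and lies on the same chromosome, had 445 in WT_early_2 and 228 in WT_late_5, against an unshifted maximum of 217. It was however highest in HET_late_1 (496) and WT_late_1 (478), whose chromosome 3 was not raised. Mcl1, an inhibitor of apoptosis on chromosome 3, was above the unshifted range in neither. Hsp90ab1, a cytosolic chaperone on chromosome 17, had 76296 in WT_early_2 and 60904 in WT_late_5, against an unshifted maximum of 57339, and the tubulin Tubb5 had 23570 in WT_late_5 and 19322 in WT_early_2, against 17850. On the same chromosome, the kinase gene Pim1, the cyclin gene Ccnd3 and Cdkn1a, an inhibitor of cell-cycle kinases, did not exceed the unshifted range in either tumour.

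Rb1, the retinoblastoma tumour suppressor on chromosome 14, had 691 normalised reads in WT_early_3, 688 in WT_early_5 and 639 in WT_late_5, against an unshifted range of 172 to 629. HET_late_1 (784) and WT_late_1 (665), shifted tumours without a raised chromosome 14, were also above that range. On chromosome 18, Atp5a1, a subunit of ATP synthase, had 19871 in WT_late_3, 18920 in WT_late_5 and 17966 in HET_early_3, against 10703 to 17005 in unshifted tumours. Hspa9, the mitochondrial HSP70, had 11367 in WT_late_5, 10760 in WT_late_3 and 9568 in HET_early_3, against a maximum of 8359. Pmaip1, a p53 target that promotes apoptosis, was above the unshifted range in 1 of these 3. On chromosome 12, the DNA methyltransferase Dnmt3a had 1663 in HET_early_1 but 789 in WT_early_2, within the unshifted range of 507 to 1079. The 8 shifted tumours in which chromosome 12 was not raised had 1058 to 1626.

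**Figure D3:**
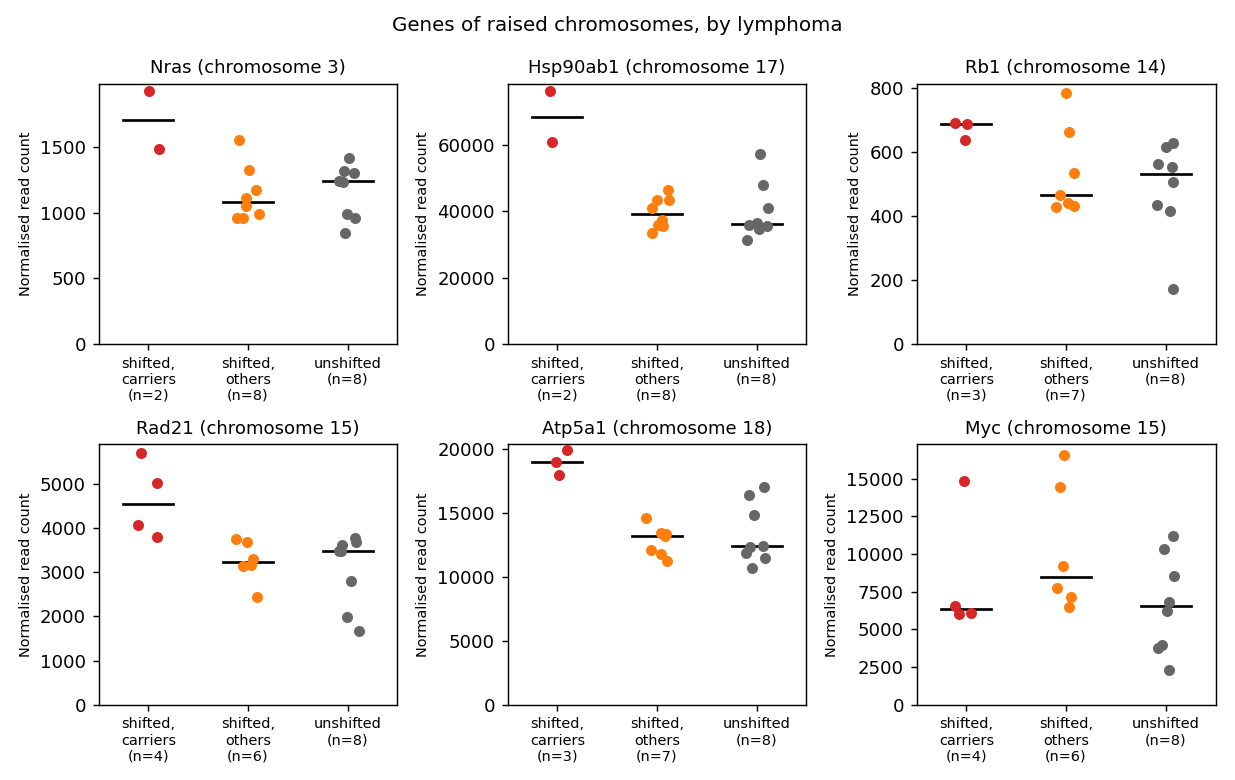
Normalised read counts of 6 genes in shifted tumours in which the gene's chromosome was raised (carriers), in the other shifted tumours and in the 8 unshifted tumours; each point is a tumour and each bar a median. Rad21, Rb1, Nras, Hsp90ab1 and Atp5a1 are above the unshifted range in every carrier, and Myc in 1 of 4. The genes drawn are a selection of those named. Only 12.2% (chromosome 15) to 27.3% (chromosome 18) of the genes on the chromosomes drawn were above the unshifted range in every carrier.

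Age at onset, genotype and onset class come from the labels and were not used to choose the tumours. Onset came at 8 to 58 weeks, with a median of 17, in the 10 mice with shifted tumours and at 9 to 76 weeks, with a median of 34, in the 8 with unshifted tumours, and the ranges overlapped. On the log2 scale the mean difference was -0.53, which an exact two-sided permutation test over 43758 arrangements did not separate from 0 (p = 0.306). Of the shifted tumours 4 of 10 were HET, against 3 of 8 unshifted tumours (Fisher's exact test, two-sided, p = 1). Early onset was recorded for 6 of 10 shifted and 3 of 8 unshifted tumours (Fisher's exact test, two-sided, p = 0.637). Mean depth was also not separated (exact two-sided permutation test, p = 0.922). With 18 tumours only large differences could pass these tests.

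Y-linked genes were not part of the rule, and 4 of them were read. Xist, the RNA that coats the inactive X chromosome, was at 7921 or more in 6 of 10 shifted and 3 of 8 unshifted tumours and at 26.6 or less in the others. In the 4 shifted tumours with low Xist, the summed level of Ddx3y, Eif2s3y, Kdm5d and Uty was 162 in WT_early_2, 370 in WT_late_3, 1314 in WT_late_1 and 1553 in HET_early_3. In the 5 unshifted tumours with low Xist it was 1162 to 1855. Of these 4 shifted tumours, 2 thus lay below the unshifted range. WT_early_2 was below every unshifted value in 3 of the 4 genes, with the RNA helicase gene Ddx3y at 64.9 against at least 251, Kdm5d at 22.2 against at least 120 and Uty at 22.2 against at least 90.7. WT_late_3 was below in 2 of the 4, Ddx3y at 84.3 and Uty at 50.6, while its Kdm5d, at 183, and Eif2s3y, at 51.8, were inside the range. Eif2s3y had 25.4 in the unshifted WT_late_4, so single Y-linked genes also varied on their own. This pattern was picked out after the values were seen, and it was not tested.

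**Figure D4:**
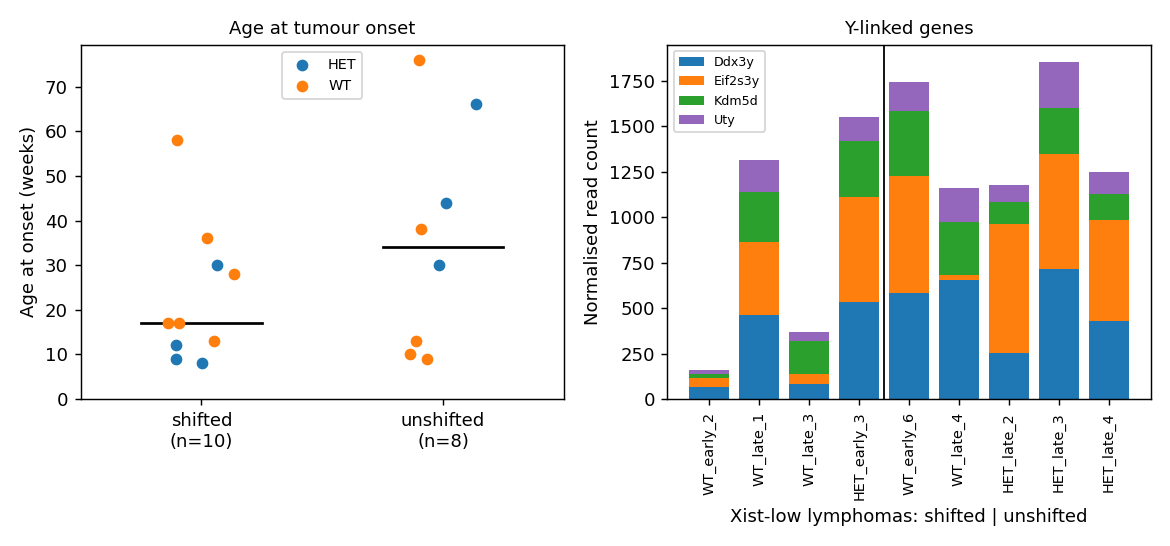
Left, age at tumour onset in weeks for the 10 shifted and 8 unshifted tumours, coloured by genotype, with medians of 17 and 34 weeks as bars. Right, stacked normalised read counts of 4 Y-linked genes in the tumours with low Xist, with 4 shifted tumours left of 5 unshifted ones; WT_early_2 and WT_late_3 sum to 162 and 370 and the unshifted tumours to at least 1162.

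All genes were compared between the 2 sets, with the 4 labelled groups as covariates. Of the 19551 genes, 6309 lie on chromosomes that passed the limit in some tumour and so had a part in the choice of the sets. No gene passed an adjusted p under 0.05 in limma (0 of 19551, 0.0%), and the lowest adjusted p was 0.311, for Pop1, an RNase P subunit gene on chromosome 15. Without adjustment, 1696 genes (8.67%) had a p under 0.05, among them 693 of the 8619 genes (8.04%) on chromosomes that never passed the limit. The quasi-likelihood test of edgeR on recovered reads called 0 genes and had 1844 at an unadjusted p under 0.05, whereas DESeq2 called 93 (50 higher, 43 lower). On simulated counts for this comparison, DESeq2 called 56 unchanged genes, limma 7 and edgeR 2. The simulated counts held planted changes, but no differences between the labelled groups and no raised chromosomes. The 56 is therefore no estimate of false calls among the 93. As every HET_early tumour in the fit was shifted, that group added nothing to the difference. Ranges and medians of normalised reads pool the groups and so do include it. Bptf, on chromosome 11, had 1277 to 2586 normalised reads in shifted and 408 to 2391 in unshifted tumours, a difference of 0.34 ± 0.21 (SE, limma adjusted p = 0.655). The genes with the smallest p-values on chromosomes that never passed the limit follow.

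Rasal2, which encodes a RAS GTPase-activating protein, had the smallest p among them (chromosome 1, 157135182 to 157412595, minus strand). It had 68.3 to 290 normalised reads in shifted tumours, with a median of 177, against 21.7 to 59.7 in unshifted tumours, with a median of 41.1. The 2 sets did not overlap, and the fitted difference was 1.93 ± 0.36 (SE) on the log2(value + 1) scale (limma adjusted p = 0.375). Among 19551 genes, 7 (0.0358%) had sets that did not overlap. The others, found after the values were seen, were Cox8a and Samd10 on chromosomes 19 and 2, Drosha on chromosome 15, Mrpl36 on chromosome 13 and the clone-named RP23-296I6.9 and RP24-239E2.2. Cox8a, a subunit of cytochrome c oxidase, had 1214 to 2142 in shifted and 2152 to 4596 in unshifted tumours, and Samd10 had 64.9 to 113 against 116 to 229. Cox8a was lowest in WT_early_3 (1214) and HET_early_3 (1510), where every stretch of chromosome 19 was below 0. The part of that lowering in Cox8a was not tested. Drosha, the nuclear microRNA-processing nuclease, had 840 to 1351 against 370 to 830. Mrpl36, of the mitochondrial ribosome, had 316 to 683 against 737 to 1570.

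Ldlrad3, an LDL receptor family member, had 65.8 to 279 normalised reads in shifted and 37.4 to 89.7 in unshifted tumours, a difference of 1.40 ± 0.29 (SE, limma adjusted p = 0.375). Kcnq1ot1, an imprinted non-coding RNA antisense to Kcnq1, had 488 to 810 against 180 to 551. Irs1, an insulin receptor adaptor, had 5.53 to 355 against 1.02 to 9.44, with the top value in WT_late_3. Dlx1as, an antisense transcript, was near the floor, at 5.59 to 33.8 against 1.02 to 6.09. The sources used here do not give whether reads were counted by strand, so those of Kcnq1ot1 and Dlx1as cannot be told from reads of overlapping genes. Stard10, a lipid transfer protein, had 15.7 to 89.0 in shifted and 49.0 to 174 in unshifted tumours, and Mlycd, malonyl-CoA decarboxylase, had 31.6 to 148 against 101 to 318. Lrfn4 had 9.39 to 63.3 against 33.0 to 99.9, Urgcp 83.7 to 264 against 174 to 313, and the serotonin receptor Htr7 0 to 1.68 against 0.870 to 10.2. DESeq2 called Rasal2 and these genes except Htr7, for which it gave no adjusted p.

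**Figure D5:**
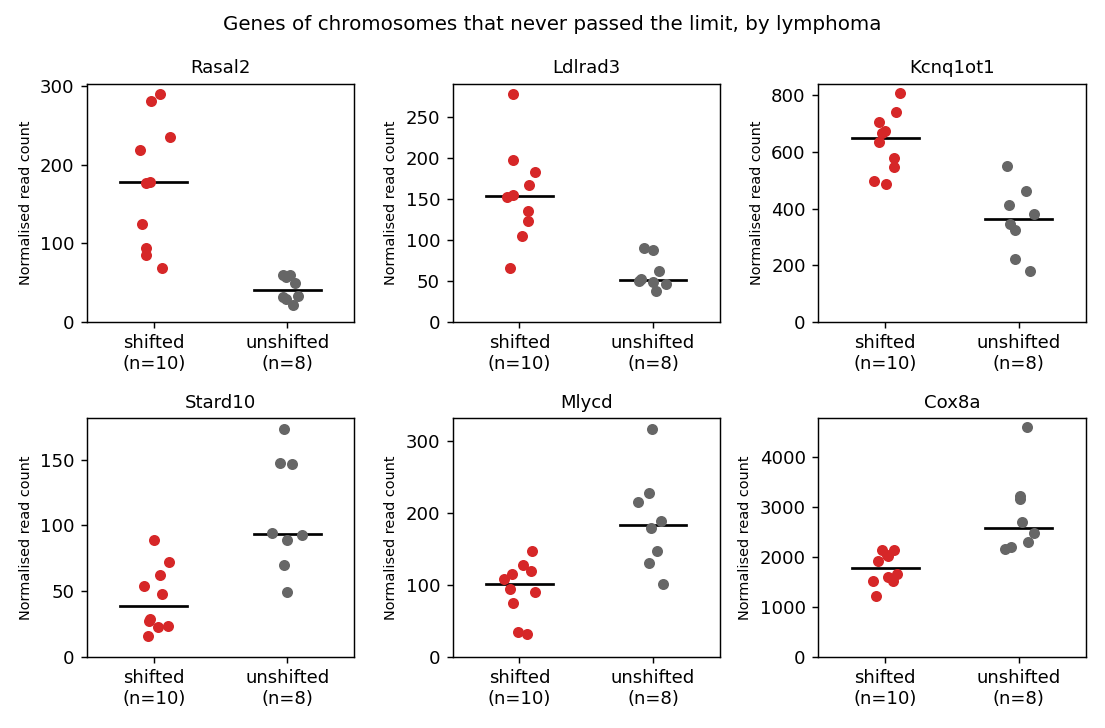
Normalised read counts of 6 genes on chromosomes that never passed the limit, in 10 shifted and 8 unshifted tumours; each point is a tumour and each bar a median. Rasal2 and Cox8a do not overlap between the sets, and none of the 6 passed limma's adjusted threshold.

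Genes of chromosome segregation and of the responses known to follow aneuploidy were counted from lists. Over all genes tested the median difference was 0.04, and 53.4% of genes had a value above 0. On chromosomes that never passed the limit, 4132 of 8619 genes had a value above 0, with a median of -0.02. In every list below limma called 0 members. Of 35 spindle checkpoint and segregation genes, 15 had a value above 0, and the median was -0.02. Espl1, separase, on chromosome 15 had the smallest p of the list, with 923 to 2158 normalised reads in shifted and 432 to 1557 in unshifted tumours. Of 17 cohesin and condensin genes 15 had a value above 0, with a median of 0.13 (0.07 without HET_late_1), and 7 of the 8 on never-shifted chromosomes did. Nipbl, the cohesin loader on chromosome 15, had 1495 to 3591 against 503 to 2007.

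Of 29 p53 targets 20 had a value below 0, with a median of -0.12 that was -0.02 without WT_late_2 and -0.28 without WT_late_4. Bax, which opens the mitochondrial outer membrane in apoptosis, had 408 to 762 normalised reads in shifted and 529 to 1809 in unshifted tumours. Ei24 had 143 to 709 against 576 to 802. Of 27 interferon and cGAS-STING genes, a pathway that senses cytosolic DNA, 21 had a value below 0, with a median of -0.43 that moved to -0.13 without WT_late_2. Ifit3 had 4.82 to 43.5 against 15.7 to 70.6, and Isg15 9.64 to 70.8 against 18.1 to 123. Sting itself (Tmem173), on chromosome 18, had 327 to 2180 against 239 to 1606. Of 31 proteasome genes 26 were below 0 (median -0.13), and of 29 oxidative phosphorylation genes 25 were (median -0.24), including all 17 on never-shifted chromosomes. Their summed levels overlapped, at 60668 to 88052 in shifted and 65742 to 134324 in unshifted tumours for oxidative phosphorylation and 45505 to 60258 against 47296 to 94472 for the proteasome. Both medians moved toward 0 without HET_late_1, the only shifted HET_late tumour, to -0.12 and -0.02. MYC target genes had a median of 0.08 (28 of 40 above 0), which was -0.05 without WT_late_2. Of 24 heat shock and chaperone genes 14 were below 0 (median -0.03, and 0.02 without HET_late_2). On never-shifted chromosomes 1 of 12 was above 0. Of 22 unfolded protein response genes 17 were below 0 (median -0.13, and 0.02 without WT_late_2). Of 22 autophagy and lysosome genes 18 were (median -0.10, and -0.04 without HET_late_1). Of 27 DNA damage response genes 18 were above 0 (median 0.08, and 0.01 without HET_late_1).

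Of 32 lymphoma oncogenes 22 had a value above 0 (median 0.08), and of 32 tumour suppressors 19 did, with a median of 0.12 that was 0.015 without HET_late_1. On never-shifted chromosomes 8 of 17 tumour suppressors had a value above 0, with a median of -0.02, which was also that of all genes there. Notch1, a receptor of lymphoid development, had 254 to 1223 normalised reads in shifted and 70.6 to 432 in unshifted tumours. Cdk6, a cell-cycle kinase, had 639 to 3328 against 270 to 1136. Both lie on chromosomes that never passed the limit.

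Markers of B cell stages and of other cells had the following values, none of them called, and their part in the values above was not tested. Of 18 genes of pro-B and pre-B cells 16 had a value above 0, with a median of 0.73 that became -0.02 without WT_early_5. Without the groups as covariates the median was 1.21. Within WT_early, the summed levels of the list were 12062, 12664 and 32712 in shifted tumours, the last in WT_early_5. They were 12215, 11857 and 10981 in unshifted WT_early tumours. Rag1, of the recombinase that rearranges antigen receptor genes, had a median of 2967 (range 0.871 to 5367) in shifted and 20.7 (1.51 to 1001) in unshifted tumours, with all groups pooled. Cd93, an early B cell marker, had 216 to 6589 against 125 to 2804. Of 16 genes of mature B cells and MHC class II, 9 had a value above 0 (median 0.06, and -0.15 without WT_late_4). On never-shifted chromosomes 1 of 8 did, with a median of -1.46. All 14 genes of plasma and germinal-centre cells were below 0 (median -0.82, and -0.48 without WT_late_2). Mzb1, a plasma cell chaperone, had 823 to 4351 against 2442 to 9419, and Igha 36.5 to 488 against 8.70 to 752208, the last in HET_late_4. Of 23 T cell genes 18 were below 0 (median -0.97), with Cd3g of the T cell receptor complex at 1.97 to 81.9 against 3.62 to 298. Cytotoxic cell genes had 11 of 14 below 0 (median -0.70, and -0.23 without WT_late_2). Macrophage and myeloid genes had 14 of 24 below 0 (median -0.12). Stromal genes had 12 of 21 above 0 (median 0.26, and 0.004 without WT_late_4). Endothelial genes had 9 of 19 above 0 (median -0.0002, -0.08 without WT_early_5 and 0.27 without WT_early_3). With all groups pooled, summed endothelial levels were 2580 to 7133 (median 4955) in shifted and 2709 to 4030 (median 3644) in unshifted tumours. Of 15 genes shared by B cells 11 were below 0 (median -0.47, and -0.27 without WT_early_2), with summed levels of 35323 to 80910 in shifted and 25658 to 80376 in unshifted tumours. Of 12 red cell genes 10 were above 0 (median 0.87, and 0.49 without WT_late_1), with summed levels of 3318 to 18300 against 2582 to 15079.

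The authors' deposited table of genotype and onset comparisons, made without regard to shifts, was counted by chromosome. Its fold changes are positive where the later or HET group is higher, which held for every called gene in these 3 comparisons. In the authors' deposited table of late against early WT tumours, 222 of 11613 autosomal genes (1.91%) had an adjusted p under 0.05. Of these 222 genes, 163 were higher in late tumours. On chromosome 15, 17 of 475 genes passed (3.58%) and on chromosome 18, 9 of 296 (3.04%), all of them higher in late tumours. Chromosome 15 was raised in 2 of 5 late and 1 of 6 early WT tumours, and chromosome 18 in 2 of 5 and 0 of 6. In the authors' deposited table of late against early HET tumours, 553 of 12092 genes (4.57%) passed, 389 of them lower in late tumours. On chromosome 18, raised in 0 of 4 late and 1 of 4 early tumours, 28 of 331 passed (8.46%), 26 of them lower in late tumours. In the authors' deposited table of early HET against early WT tumours, 278 of 11888 genes (2.34%) passed, 220 of them higher in HET. There, 26 of 657 passed on chromosome 6 (3.96%) and 12 of 325 on chromosome 18 (3.69%), all higher in HET. Each of these chromosomes was raised in 1 of 4 early HET tumours and 0 of 6 early WT tumours. In each of the 3 comparisons these were the chromosomes with the highest shares. In late against early HET, chromosome 15 came next to 18 at 6.52%, with 18 genes higher and 14 lower in late tumours. It was raised in 1 of 4 late HET tumours and lowered in 1 of 4 early ones, HET_early_2, the tumour left out here. That lowering was uneven, with stretches of chromosome 15 from -0.70 to 0.39 relative to the unshifted tumours. Raised chromosomes did not all have such shares. Chromosome 12, raised in 0 of 4 late and 1 of 4 early HET tumours, had 3.67% in the authors' deposited table of late against early HET tumours. Chromosome 3, raised in 1 of 5 late and 1 of 6 early WT tumours, had 0.887% in that of late against early WT tumours. The chromosomes named were picked out after the counts were seen. These comparisons share libraries with the sets described here, and the shares were not tested.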

How the data were processed

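The authors deposited a table with 1 normalised signal per gene and library for 21086 genes. Dividing by the smallest step of each library gave whole reads for all values (100%, tolerance 0.01 reads), 8297856 to 12497732 per library. Amplified reads are not independent molecules, so depth gives counting error only. The submitters' processing notes name TopHat2 2.1.1 and, besides FastQC 0.11.5, the programs Cuffdiff, Cuffnorm and Cufflinks 2.2.1, without saying which made the table. The authors also deposited log2 fold changes and adjusted p-values of 5 comparisons. Gene positions came from GENCODE M21 (GRCm38) for 16075 symbols.

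Tumours were separate mice per the labels. The members, lists and tests were chosen with earlier results of these data known. Values were analysed as log2(value + 1), which understates changes of low genes, with limma 3.58.1 (trend, R 4.3.3) in 18 libraries, after a filter (value of 1 or more in 4 or more libraries) that kept 19551 genes. Benjamini-Hochberg adjustment ran over all of them, and p-values measure the spread between these tumours. Alternatives were edgeR 4.0.16, DESeq2 1.42.0, pseudocount 0.1, other filters, covariates, scaling and weights, and each library left out in turn. On simulated counts for this comparison over 19551 genes, limma recovered 37.3%, 67.2% and 84.8% of genes changed 2-fold, 4-fold and 8-fold. Permutation and Fisher's exact tests used SciPy 1.17.1.

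Named were Bptf, Myc, the 5 genes with the smallest p in each direction on chromosomes that never passed the limit, up to 4 members of each list, and the 5 highest genes and listed oncogenes and tumour suppressors of chromosomes shifted in at least 2 tumours. Exceptions are marked as chosen after their values were seen. Results of 1 listed gene are not reported here.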

Additional observations from a re-analysis of the deposited data

Results flagged for a closer look

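Of 92 sets of values checked for a library far from the rest of its set, 14 were picked out, and chance picks about 1 in 20. Among the shifted tumours, WT_late_5 stood apart with 7 shifted chromosomes, and with the highest summed level of red cell genes (18300 normalised reads). HET_late_1 had the highest summed level of cytotoxic cell genes, at 1016. WT_early_5 had the highest summed level of cartilage and muscle genes, at 14845, and of the antisense transcript Dlx1as, at 33.8. WT_late_1 had the highest summed level of salivary and epithelial genes, at 6150. Irs1 was highest in WT_late_3, at 355.

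Among the unshifted tumours, HET_late_4 stood apart in 4 sums. It had the lowest summed level of spindle and segregation genes, at 21107, and of proliferation genes, at 37533. It had the highest of unfolded protein response genes, at 159495, and of plasma and germinal-centre cell genes, at 830529. HET_late_2 was highest in proteasome genes, at 94472, and in oxidative phosphorylation genes, at 134324. WT_early_6 was highest in salivary and epithelial genes, at 658491.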

How the results depend on the processing

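The same 10 tumours passed the limit when genes were centred on their mean. With genes of a mean of at least 200, HET_late_2 also passed (-0.27 on chromosome 18). On the first part of each chromosome alone HET_late_1 fell inside it (0.21) while HET_late_2 (0.37) and HET_late_4 (0.29), both on chromosome 19, passed. The count of genes called was 0 in limma and edgeR, 93 in DESeq2 (41 on chromosomes that never passed the limit), and 0 to 1 on leaving out a library. The 1 call, without HET_late_2, was the clone-named AC119897.1. Rasal2 kept its direction at 1.67 to 2.08, with an adjusted p of 0.234 to 0.975, the last without HET_late_1.

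The share of HET tumours differed by 2.5 percentage points and changed sign with HET_early_2 counted as unshifted (-4.44), with a limit of 0.3 (-25.0), and on leaving out a library (range -4.17 to 11.4). Mean depth differed by 59181 reads, with a range of -156253 to 353864 on leaving out a library. The cause was not tested. Onset age and onset class kept their direction in all alternatives run. No paired analysis was possible because replicate numbers only name separate tumours.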
